A study of Mus musculus with 12 samples.

Results

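The transcription factor p53 (Trp53), its negative regulators and a set of its classical target genes were followed in B16 cells, a mouse melanoma line, in which the gene Elp3 had been depleted by RNA interference. The set held 32 genes, chosen by symbol from a table of 24421 genes. It comprised Trp53 with the regulators Mdm2, Mdm4 and Ppm1d, 8 genes of growth arrest and stress signalling, 11 genes of cell death, 5 genes of DNA repair and nucleotide supply and 4 genes of metabolism and matrix. Elp3 encodes the catalytic subunit of Elongator, a complex that modifies the wobble uridine of certain transfer RNAs. B16 cells received lentivirus carrying either a non-relevant shRNA (shControl, the control group) or the Elp3-specific shRNA sh309 (shElp3), with no other treatment named in the labels. From each culture total RNA and ribosome-protected fragments (RPF, the short pieces of mRNA covered by ribosomes, here called footprints) were sequenced, 3 libraries per fraction and shRNA, lettered A to C. The comparison asked how depletion of Elp3 changed mRNA levels and the distribution of ribosomes over mRNAs. Only 1 shRNA against Elp3 was used, and nothing in the labels says that the lettered cultures were separate transductions, so each p-value reflects only how far these cultures varied.

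In unstressed cells p53 is kept scarce because Mdm2, a ubiquitin ligase, marks it for destruction, while Mdm4 binds and masks its activation domain and the phosphatase Ppm1d (Wip1) removes activating phosphates. DNA damage, nucleolar stress and other insults release p53, which binds paired copies of a short DNA element near its targets and raises their transcription. Mdm2 and Ppm1d are themselves targets, which closes a negative feedback loop, and the other targets stop the cell cycle, repair DNA, buffer metabolic stress or trigger death.

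The element that p53 recognises is a 10-base consensus that usually occurs as a pair. The p53 decamer consensus was searched in windows of 250 bases before to 50 bases after each RefSeq start site (build GRCm38.p6). It reads the same on both strands, so one search covers both. Of the 32 genes 24 had such a window, and 9 of these (37.5%) held at least 1 perfect match, against 9.55% of 27025 genes of the same table. A match describes letters in the window and not a bound site. For 7 of the 9 genes the matching stretch, wholly before the start site of its window, is shown because this element is the one by which p53 targets are recognised. For Sesn1 (chr10:41810574-41908436) and Polk (chr13:96480687-96542579) that start site lies inside the gene's span, and so does the stretch. The decamer is in capitals and each stretch is on its gene's strand, 5′ to 3′.

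Trp53, chr11:69580259-69580318, plus strand: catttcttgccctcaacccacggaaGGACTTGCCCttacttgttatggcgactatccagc
Mdm2, chr10:117710910-117710969, minus strand: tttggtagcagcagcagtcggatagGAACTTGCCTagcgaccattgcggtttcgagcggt
Ppm1d, chr11:85311097-85311156, plus strand: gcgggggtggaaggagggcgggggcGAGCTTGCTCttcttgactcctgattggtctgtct
Ccng1, chr11:40755437-40755496, minus strand: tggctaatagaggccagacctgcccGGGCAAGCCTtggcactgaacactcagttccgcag
Sesn1, chr10:41887241-41887300, plus strand: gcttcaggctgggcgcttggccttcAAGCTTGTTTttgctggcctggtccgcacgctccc
Bax, chr7:45467065-45467124, minus strand: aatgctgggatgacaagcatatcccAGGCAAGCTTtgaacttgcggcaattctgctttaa
Polk, chr13:96519384-96519437, minus strand: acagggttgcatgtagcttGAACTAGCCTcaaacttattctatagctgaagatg

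The other 2 matches were in Ei24, next to the start site, and in Aen, 10 bases after the start. Of the genes with a match, Ppm1d, Bax, Ccng1 and Sesn1 had footprint groups that did not overlap, and those of Trp53, Mdm2, Aen, Ei24 and Polk overlapped. In the set 9 of 29 genes had every shElp3 footprint library above every control, against 15.4% of all genes. For Sesn1 the footprint log2 fold change was only 0.13 (SE 0.13, adjusted p = 0.593 in edgeR). Whether a match went with a higher level was not tested. Btg2 and Fas, which had the highest fold changes of the set, had a window without a perfect match, which says only that these letters are not in it.

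Libraries held 7619269 to 16527864 counts, and values are given as CPM (read counts scaled to a common library size) after scaling by the trimmed mean of M values (TMM) within a fraction. Total RNA of control culture A stood apart from the other control RNA libraries: its rank correlation with B and C was 0.876 and 0.866, against 0.992 between B and C, and its TMM factor was 0.813 against 1.01 to 1.06 for the other 5 RNA libraries. RNA of shElp3 culture A correlated with B and C at 0.926 and 0.934, against 0.985 between B and C. In footprints control A correlated with B and C at 0.941 and 0.947, against 0.992 between B and C. Footprints of shElp3 culture A did not stand apart, at 0.991 and 0.982, against 0.987 between B and C. The fits with letters B and C only leave out that library too. Calls are given with and without letter A, and fold changes of some genes for B and C only. Elp3 itself was at 78.7 ± 13.3 CPM in control RNA and 37.3 ± 3.42 CPM in shElp3 RNA (SD, n = 3). The log2 fold change was -1.08 (SE 0.22, adjusted p = 0.0831) in RNA, and in footprints it was -0.93 (SE 0.15, adjusted p = 0.0249). With the replicate letter as a block Elp3 RNA fell by 1.07 (adjusted p = 9.77e-04). The footprint call was lost when any library other than control A was left out (adjusted p 0.0694 to 0.136). Footprint calls over all genes went from 548 to 52 or 59 without control B or C, and to 0 without any shElp3 library. All 7 markers of the melanocyte lineage were expressed. Their summed level was lower in every shElp3 RNA library (5865 to 7399 CPM) than in every control (8821 to 11767 CPM), and the part of this difference in the values below was not tested. Of the epithelial and endothelial markers none passed the count filter, while 2 of 6 leukocyte and 2 of 6 fibroblast markers did. The leukocyte sum was 7.61 to 22.4 CPM in control RNA and 6.15 to 11.7 CPM in shElp3 RNA, with Ptprc and Adgre1 at 0. The fibroblast sum was 13.1 to 24.4 CPM in control RNA and 21.8 to 43.1 CPM in shElp3 RNA, with Dcn at 0. In footprints the fibroblast sum was higher in every shElp3 library (35.3 to 40.2 CPM) than in every control (24.8 to 26.6 CPM), and its part in the results was not tested.

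Most of the p53 set lay higher in shElp3 cells in cultures B and C, while in culture A the set was centred near 0 in both fractions. Of the 32 genes 30 passed the low-count filter in RNA and 29 in footprints, since Pmaip1 and Perp were almost undetected and Tnfrsf10b had almost no footprints. Over the 30 genes in RNA, the median log2 difference between shElp3 and control of the same letter was -0.037 in A, 0.67 in B and 0.40 in C, with 13, 26 and 27 genes above 0. Over the 29 genes in footprints it was 0.07 in A, 0.72 in B and 0.50 in C, with 17, 26 and 26 genes above 0. The median over all genes tested was near 0 in each letter. Whether the response in letter A differed from that in B and C was not tested. A bulk value cannot tell more expressing cells from more transcript per cell.

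**Figure D1:**
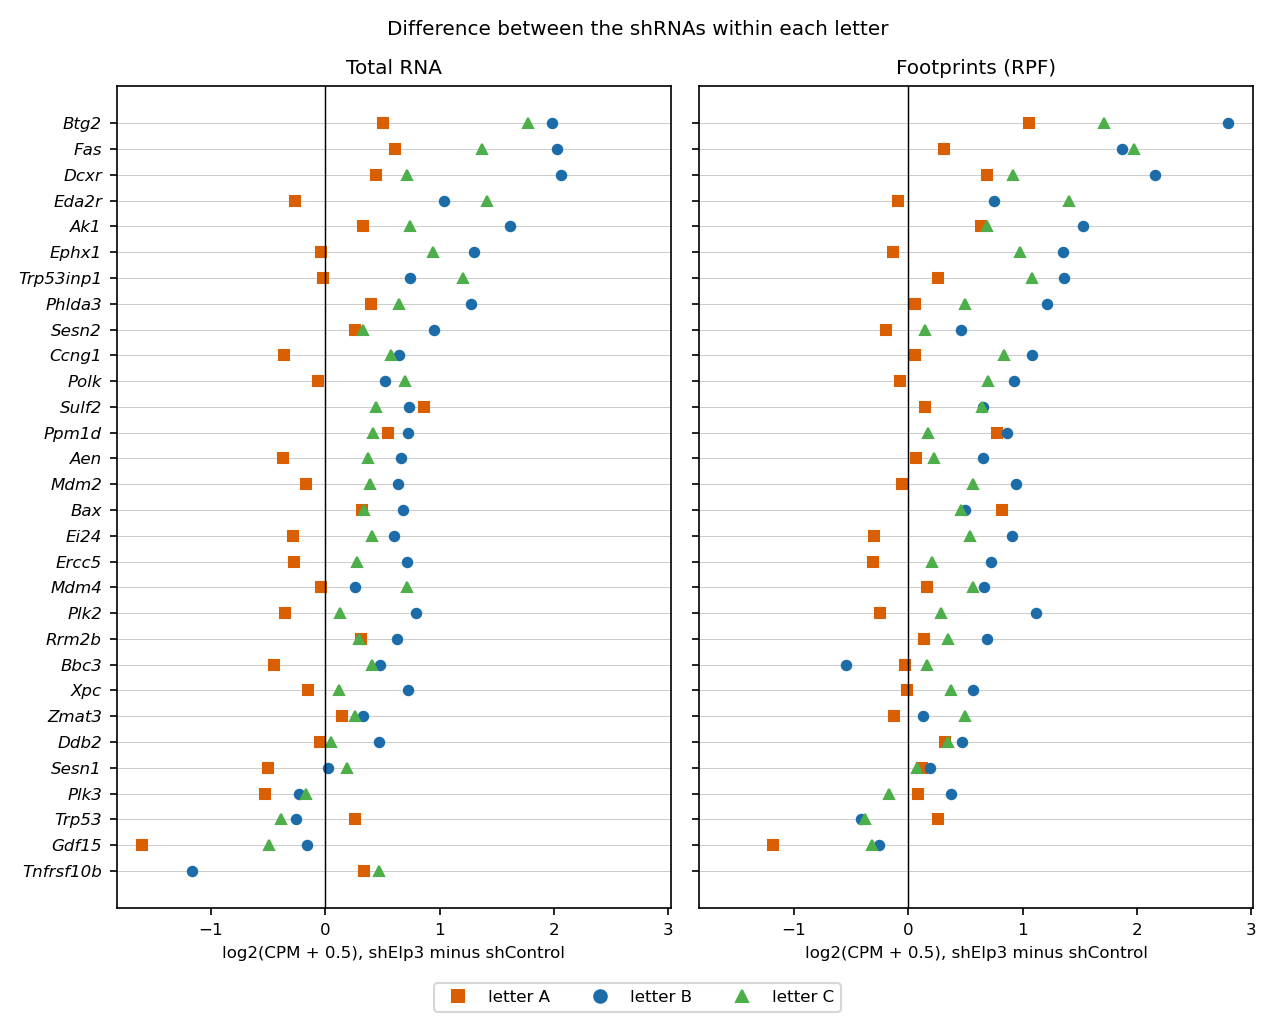
Difference between shElp3 and shControl on the log2(CPM + 0.5) scale (x axis) for each gene (rows, 30 in total RNA at left, 29 in footprints at right), with 1 point for each letter. Points of letters B and C lie mostly above 0, with medians of 0.67 and 0.40 in RNA, while those of letter A lie around 0, with a median of -0.037.

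In the test over all 6 RNA libraries with edgeR, where a call is an adjusted p under 0.05 (Benjamini-Hochberg, over all genes tested), none of the 30 genes was called, against 1.14% of all genes. At an unadjusted p under 0.05, 1 gene (Ppm1d) passed, against 12.4% of all genes, and DESeq2 also called 0 of 30, against 5.31% of all genes. The median log2 fold change over the 30 genes was 0.29, with 25 of 30 above 0, against a median of -0.02 over all genes. Same-letter deviations of the RNA libraries from their group means correlated at 0.831, 0.492 and 0.644 in A, B and C, and the letter was used as a block. With A apart in both groups, deviations of B and C lie opposite to A, which by itself pushes their correlations above 0. The values of B and C therefore cannot show that these letters were paired. Control B correlated with shElp3 C at 0.746 and control C with shElp3 B at 0.623, so only letter A was set apart. With the letter as a replicate block, 6 of 30 genes rose (Btg2, Fas, Phlda3, Dcxr, Ak1 and Sulf2) and 0 fell, against 5.46% of all genes called higher. With letters B and C only, 19 of 30 rose and 0 fell, against 8.88% of all genes called higher. Leaving out control RNA library A alone gave 7 of 30 (Fas, Eda2r, Btg2, Trp53inp1, Ephx1, Dcxr and Ak1), against 1.35% of all genes called higher. Leaving out any other RNA library gave 0 in the set and also 0 over all genes.

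Over all 6 footprint libraries, 0 of 29 genes were called by edgeR, against 4.83% of all genes. At an unadjusted p under 0.05 there were 9 (Ppm1d, Bax, Fas, Ccng1, Btg2, Trp53inp1, Sulf2, Dcxr and Ak1), all of them higher in shElp3, against 23.1% of all genes in either direction. DESeq2 called 5 of 29 higher (Ppm1d, Bax, Btg2, Sulf2 and Ak1), against 4.65% of all genes called higher. The median log2 fold change was 0.42, with 26 of 29 genes above 0, against a median of -0.01 over all genes. Control and shElp3 footprint libraries did not overlap, with shElp3 higher, for 9 of 29 genes, against 15.4% of all genes, and with shElp3 lower for 0 of 29, against 15.3%. In RNA 1 gene did so in each direction (Ppm1d higher and Plk3 lower), against 10.2% and 9.56% of all genes. With letters B and C only, 19 of 29 genes rose in footprints, against 9.41% of all genes called higher, and 1 (Trp53) fell, against 12.2% called lower. Without control footprint library A, 21 of 29 rose, against 10.7% called higher, and again Trp53 fell.

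The p53 gene itself was not called higher in either fraction. Trp53 (chr11:69580348-69591873, mm10) stood in RNA at 12.003, 61.4 and 60.2 CPM in control libraries A, B and C and at 14.5, 51.3 and 45.8 CPM in shElp3 libraries A, B and C. Both A libraries were far below the other 4, and the groups overlapped. Footprints on Trp53 measured 136, 204 and 198 CPM in the control cultures and 164, 153 and 152 CPM in the shElp3 cultures, so that culture A was the lowest control and the highest shElp3 value. The log2 fold change over all letters was -0.26 (SE 0.67, adjusted p = 0.943) in RNA and -0.20 (SE 0.17, adjusted p = 0.532) in footprints. In letters B and C alone footprints on Trp53 fell by 0.40 on the log2 scale (adjusted p = 0.0292), and RNA gave -0.33 (SE 0.16, adjusted p = 0.155), which missed the threshold.

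Of the regulators, Ppm1d was the gene whose groups separated in both fractions. Its RNA was at 20.1, 16.6 and 18.4 CPM in control libraries A, B and C and at 29.5, 27.7 and 24.8 CPM in shElp3 libraries A, B and C, with no overlap between the groups. Its footprints were at 23.9, 23.3 and 29.8 CPM in the control cultures and 41.3, 42.8 and 33.6 CPM in the shElp3 cultures, again with every shElp3 library above every control. This amounted to 1.49-fold in RNA, a log2 fold change of 0.57 (SE 0.21, adjusted p = 0.314), and to 1.53-fold in footprints, a log2 fold change of 0.61 (SE 0.17, adjusted p = 0.0830). Neither passed the adjusted threshold over all letters, and DESeq2 called the footprint difference (adjusted p = 0.0306). Mdm2 RNA, from the ubiquitin ligase gene, was at 385, 197 and 202 CPM in control libraries A, B and C and at 342, 306 and 265 CPM in shElp3 libraries A, B and C. Control A was the highest of all 6, and controls B and C were below all 3 shElp3 libraries. Mdm2 footprints followed at 289.8, 141 and 162 CPM in the control cultures and 279.5, 271 and 240.4 CPM in the shElp3 cultures. Over all letters the log2 fold change of Mdm2 was 0.22 (SE 0.32, adjusted p = 0.873) in RNA and 0.42 (SE 0.26, adjusted p = 0.383) in footprints. In letters B and C it was 0.51 (SE 0.14, adjusted p = 0.0188) in RNA and 0.75 (SE 0.13, adjusted p = 0.00175) in footprints. Mdm4 RNA was at 221, 186 and 172 CPM in control libraries A, B and C and at 216, 223 and 282 CPM in shElp3 libraries A, B and C, and its footprints were at 34.6, 20.7 and 23.9 CPM in the control cultures and 38.8, 33.0 and 35.6 CPM in the shElp3 cultures. Groups overlapped in both fractions. The Mdm4 fold change missed the threshold over all letters and passed it in B and C, at 0.50 (SE 0.15, adjusted p = 0.0299) in RNA and 0.62 (SE 0.16, adjusted p = 0.0186) in footprints.

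**Figure D2:**
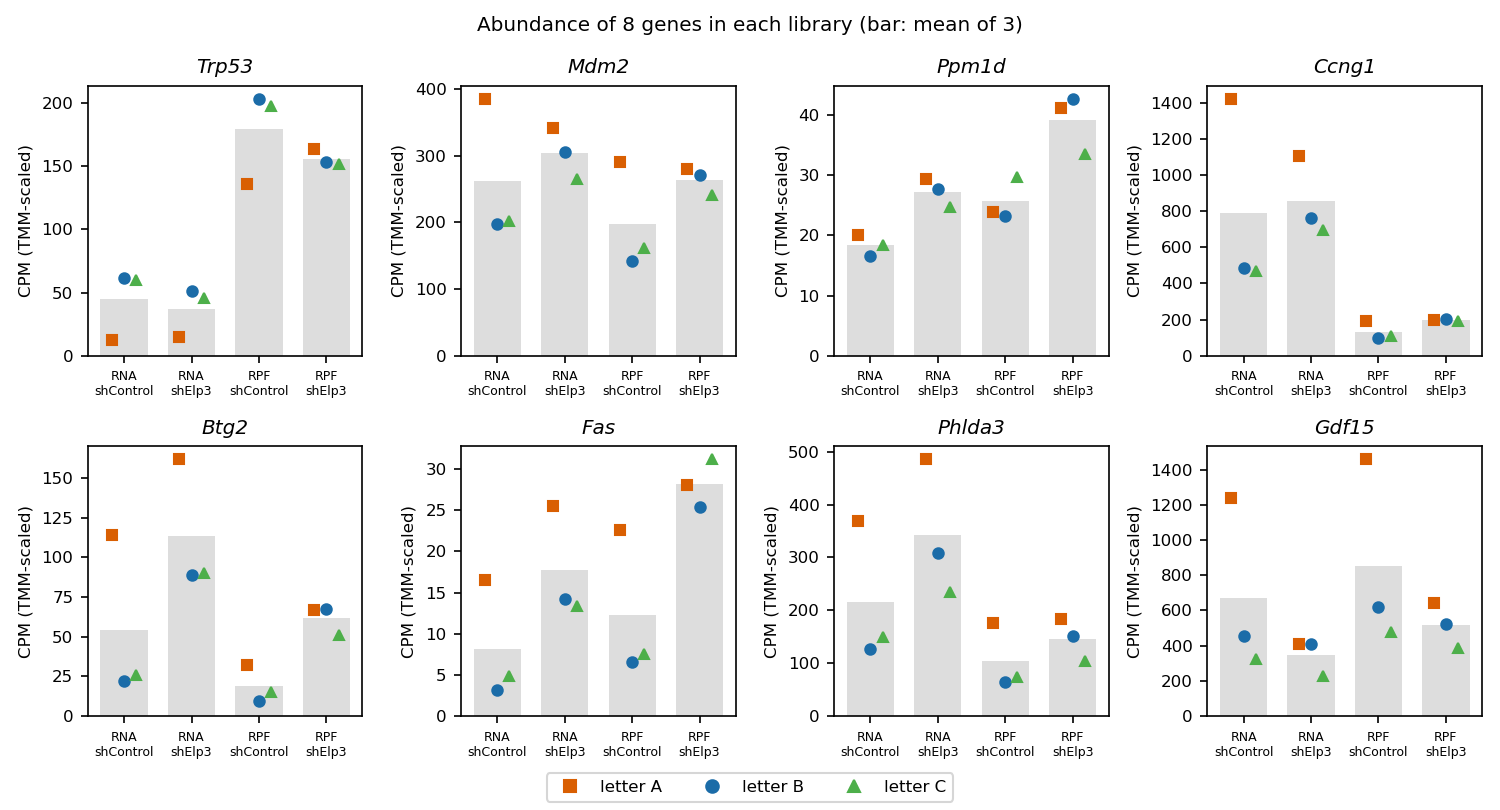
Level of 8 genes in each library in TMM-scaled CPM (y axis, linear from 0), by fraction and shRNA (x axis), with points for letters A, B and C and bars for the mean of 3. Control culture A sits above control B and C for Mdm2, Ccng1, Btg2, Fas, Phlda3 and Gdf15 in both fractions and below them for Trp53, and Ppm1d is higher in every shElp3 library than in every control.

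Among the genes of growth arrest and stress signalling, Btg2 had the highest fold change. Btg2 encodes an antiproliferative protein that promotes removal of poly(A) tails from mRNA. Btg2 RNA stood at 114, 22.2 and 26.1 CPM in control libraries A, B and C and at 162, 89.1 and 90.1 CPM in shElp3 libraries A, B and C. Within every letter shElp3 exceeded the control, by 0.50, 1.98 and 1.77 on the log2 scale in A, B and C, but control A lay above shElp3 B and C, so the groups overlapped. Its footprints were at 31.9, 9.24 and 15.3 CPM in the control cultures and 66.8, 67.3 and 51.3 CPM in the shElp3 cultures, and here every shElp3 library was above every control. The log2 fold change of Btg2 in RNA was 1.07 (SE 0.64, adjusted p = 0.597) over all letters and 1.42 (SE 0.25, adjusted p = 0.00195) with the replicate block. In footprints it was 1.73 (SE 0.40, adjusted p = 0.0521) over all letters, from 18.8 ± 11.7 to 61.8 ± 9.09 CPM (SD, n = 3). In letters B and C alone it was 1.89 in RNA and 2.26 in footprints.

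Ccng1 encodes cyclin G1, which takes part in the control of Mdm2. Its RNA was at 1424, 487 and 468 CPM in control libraries A, B and C and at 1105, 763 and 699 CPM in shElp3 libraries A, B and C. Control A had the highest value of all, so that the difference was -0.37 in A against 0.65 in B and 0.58 in C. Its footprints were at 192, 96.7 and 108 CPM in the control cultures and 199.7, 206 and 193 CPM in the shElp3 cultures, with no overlap, though control A lay just below the shElp3 cultures. Ccng1 rose in letters B and C, with a log2 fold change of 0.61 (SE 0.14, adjusted p = 0.00645) in RNA and 0.96 (SE 0.12, adjusted p = 2.73e-04) in footprints, and over all letters it was 0.11 (SE 0.48, adjusted p = 0.970) and 0.60 (SE 0.25, adjusted p = 0.205). Trp53inp1 encodes a stress-induced protein that acts in autophagy. Total RNA of Trp53inp1 stood at 611, 230.4 and 189 CPM in control libraries A, B and C and at 601, 385 and 435 CPM in shElp3 libraries A, B and C, and its footprints were at 126, 56.5 and 62.2 CPM in the control cultures and 151, 146 and 133 CPM in the shElp3 cultures. Its log2 fold change in B and C was 0.97 (SE 0.15, adjusted p = 2.19e-04) in RNA and 1.23 (SE 0.13, adjusted p = 7.28e-05) in footprints. Over all letters it was 0.46 (SE 0.47, adjusted p = 0.797) and 0.82 (SE 0.29, adjusted p = 0.150).

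Sesn2, a sestrin that restrains the growth kinase complex mTORC1, was called in RNA of B and C and not in footprints. Sesn2 RNA was at 40.0, 32.3 and 49.9 CPM in control libraries A, B and C and at 48.0, 62.9 and 62.7 CPM in shElp3 libraries A, B and C, and its footprints were at 50.6, 26.3 and 34.5 CPM in the control cultures and 44.1, 36.4 and 38.2 CPM in the shElp3 cultures, with groups that overlapped in both fractions. In B and C the log2 fold change was 0.61 (SE 0.19, adjusted p = 0.0289) in RNA and 0.29 (SE 0.16, adjusted p = 0.235) in footprints, and the difference between the fractions did not pass its own test. The related Sesn1 gave -0.19 (SE 0.40, adjusted p = 0.920) in RNA. The polo-like kinase gene Plk2 was called in footprints of B and C, at 0.71 (SE 0.18, adjusted p = 0.0156), and without control A, at 0.77 (SE 0.17, adjusted p = 0.00922), and not in RNA, and Plk3, at no more than 8.28 CPM, was not called. Plk2 footprints gave 0.29 (SE 0.34, adjusted p = 0.652) over all letters.

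Gdf15, a secreted cytokine of the TGF-beta family that p53 and the integrated stress response both induce, had the most negative fold change of the set over all letters. In letters B and C alone that gene was Trp53, in both fractions. Gdf15 RNA lay at 1240.5, 457 and 321 CPM in control libraries A, B and C and at 407, 408 and 228 CPM in shElp3 libraries A, B and C, and its footprints were at 1459.8, 621 and 478 CPM in the control cultures and 644, 521 and 385 CPM in the shElp3 cultures. Control A held by far the highest value in both fractions, and the other 5 libraries ran from 228 to 457 CPM in RNA. Within every letter shElp3 was below the control. The log2 differences in A, B and C were -1.61, -0.16 and -0.49 in RNA and -1.18, -0.25 and -0.31 in footprints. The log2 fold change of Gdf15 was -0.95 (SE 0.53, adjusted p = 0.558) in RNA over all letters and -0.29 (SE 0.22, adjusted p = 0.380) in B and C. With the replicate block Gdf15 RNA gave -0.75 (SE 0.26, adjusted p = 0.0771). Its footprints gave -0.72 (SE 0.40, adjusted p = 0.329) over all letters and -0.28 (SE 0.17, adjusted p = 0.257) in B and C. None of these passed. Over the 8 arrest and stress genes the median log2 fold change was 0.059 in RNA and 0.21 in footprints. In B and C 4 of the 8 rose in RNA and 4 in footprints, against 8.88% and 9.41% of all genes, and 0 fell.

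Among the genes of cell death, Fas and Phlda3 rose in RNA with the replicate block. Fas encodes the death receptor on the cell surface. Its RNA was low, at 16.6, 3.12 and 4.89 CPM in control libraries A, B and C and at 25.6, 14.3 and 13.4 CPM in shElp3 libraries A, B and C, and within each letter shElp3 exceeded the control. Its footprints were at 22.6, 6.56 and 7.56 CPM in the control cultures and 28.1, 25.3 and 31.2 CPM in the shElp3 cultures, with every shElp3 library above every control. The log2 fold change of Fas RNA was 1.11 (SE 0.62, adjusted p = 0.557) over all letters, 1.35 (SE 0.28, adjusted p = 0.00648) with the block and 1.78 (SE 0.26, adjusted p = 9.13e-05) in B and C. In footprints it was 1.23 (SE 0.44, adjusted p = 0.148) over all letters and 1.997 (SE 0.20, adjusted p = 4.00e-05) in B and C. Phlda3 encodes a small protein that keeps the survival kinase Akt from the membrane. Phlda3 RNA was at 369, 127 and 149 CPM in control libraries A, B and C and at 486, 309 and 234 CPM in shElp3 libraries A, B and C, and its footprints were at 176, 65.0 and 72.8 CPM in the control cultures and 183, 151 and 103 CPM in the shElp3 cultures. Differences in letter A were 0.40 in RNA and 0.055 in footprints on the log2 scale, below those in B and C. The block gave 0.77 (SE 0.21, adjusted p = 0.0273) for Phlda3 RNA, and B and C alone gave 0.97 (SE 0.16, adjusted p = 3.80e-04). Without the block, all letters gave 0.67 (SE 0.47, adjusted p = 0.670) in RNA and 0.48 (SE 0.39, adjusted p = 0.505) in footprints.

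Bax, which forms pores in the outer mitochondrial membrane, was higher in shElp3 in each of the 3 letters. Bax RNA stood at 219.6, 152 and 158 CPM in control libraries A, B and C and at 274, 243 and 201 CPM in shElp3 libraries A, B and C, with shElp3 above the control in each letter but control A above shElp3 C. Its footprints were at 78.6, 86.9 and 96.6 CPM in the control cultures and 139, 123 and 133 CPM in the shElp3 cultures, and these groups did not overlap. Footprints on Bax went from 87.4 ± 9.01 to 132 ± 8.36 CPM (SD, n = 3), which gave 0.59 (SE 0.14, adjusted p = 0.0505) on the log2 scale, just outside the threshold in edgeR and inside it in DESeq2 (adjusted p = 0.00273). In B and C Bax rose in both fractions, by 0.52 (SE 0.15, adjusted p = 0.0216) in RNA and 0.48 (SE 0.13, adjusted p = 0.0216) in footprints. Eda2r, a receptor of the tumour necrosis factor family, rose in B and C from low counts, by 1.33 (SE 0.26, adjusted p = 0.00151) in RNA. Ei24, a protein of the endoplasmic reticulum, rose in RNA of B and C by 0.51 (SE 0.15, adjusted p = 0.0235). The nuclease gene Aen rose there by 0.52 (SE 0.15, adjusted p = 0.0221). Over all letters RNA gave 0.47 for Eda2r (adjusted p = 0.835), 0.16 for Ei24 (adjusted p = 0.920) and 0.063 for Aen (adjusted p = 0.984). The next genes did not pass the threshold. Bbc3 (PUMA), a direct activator of Bax-type killing, gave 0.44 (SE 0.18, adjusted p = 0.0958) in RNA and -0.24 (SE 0.26, adjusted p = 0.559) in footprints of B and C. Zmat3, an RNA-binding zinc finger protein, gave 0.29 (SE 0.14, adjusted p = 0.162) in RNA. Pmaip1 (NOXA) reached at most 0.356 CPM, Perp 0.710 CPM and the TRAIL receptor gene Tnfrsf10b 3.39 CPM in any library. In B and C 6 of the 9 death genes tested in RNA and 5 of the 8 tested in footprints rose, against 8.88% and 9.41% of all genes, and 0 fell.

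Of the 5 DNA repair and nucleotide genes 2 rose in RNA and 4 in footprints in letters B and C, against 8.88% and 9.41% of all genes, and 0 fell. Rrm2b, the ribonucleotide reductase subunit used outside S phase, ranged from 37.1 to 50.5 CPM in control RNA and from 48.8 to 62.7 CPM in shElp3 RNA, with overlap. Polk, a polymerase that copies past DNA lesions, rose in B and C by 0.62 (SE 0.16, adjusted p = 0.00980) in RNA and 0.82 (SE 0.13, adjusted p = 0.00121) in footprints. Ercc5, an endonuclease of nucleotide excision repair, rose there by 0.50 (SE 0.15, adjusted p = 0.0298) and 0.45 (SE 0.15, adjusted p = 0.0477). Over all letters RNA and footprints gave 0.33 and 0.47 for Polk (adjusted p = 0.772 and 0.281). For Ercc5 they gave 0.18 and 0.15 (adjusted p = 0.898 and 0.752). Xpc, which recognises DNA damage, and Rrm2b were called in footprints of B and C, at 0.47 (SE 0.13, adjusted p = 0.0265) and 0.54 (SE 0.17, adjusted p = 0.0397), and not in RNA. Their footprints over all letters gave 0.29 (adjusted p = 0.342) and 0.39 (adjusted p = 0.291). Ddb2, another damage sensor, lay between 3.21 and 9.41 CPM and was not called. Whether footprints differed from RNA is covered by the test of translational efficiency, which none of these genes passed.

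The 4 genes of metabolism and matrix had the highest group medians, 0.70 in RNA and 0.76 in footprints over all letters, and all 4 rose in both fractions in B and C, against 8.88% and 9.41% of all genes. Ak1, an adenylate kinase, had RNA at 258, 85.7 and 102 CPM in control libraries A, B and C and at 325, 264 and 170.4 CPM in shElp3 libraries A, B and C, and its footprints were at 169, 83.4 and 93.7 CPM in the control cultures and 263, 241 and 152 CPM in the shElp3 cultures. Each letter had more in shElp3, by 0.33, 1.62 and 0.74 in RNA on the log2 scale. Dcxr, a reductase of sugars and dicarbonyls, had RNA at 286, 61.3 and 90.8 CPM in control libraries A, B and C and at 388, 257 and 149 CPM in shElp3 libraries A, B and C and footprints at 186, 50.4 and 85.9 CPM in the control cultures and 300.1, 227 and 163 CPM in the shElp3 cultures, also higher in shElp3 within every letter. With the replicate block the RNA log2 fold change was 0.89 (SE 0.23, adjusted p = 0.0213) for Ak1 and 1.06 (SE 0.26, adjusted p = 0.0175) for Dcxr. Without the block it was 0.77 (SE 0.47, adjusted p = 0.602) for Ak1 and 0.86 (SE 0.61, adjusted p = 0.672) for Dcxr. Ephx1, the microsomal epoxide hydrolase, had RNA at 853, 306 and 373 CPM in control libraries A, B and C and at 830.4, 756 and 719 CPM in shElp3 libraries A, B and C. Its footprints were at 2151, 778 and 1028 CPM in the control cultures and 1960.1, 1984 and 2022 CPM in the shElp3 cultures. The A cultures were alike in both fractions, and controls B and C were lower than all others. In B and C the log2 fold change of Ephx1 was 1.12 (SE 0.15, adjusted p = 4.91e-05) in RNA and 1.15 (SE 0.15, adjusted p = 2.81e-04) in footprints. Over all letters it was 0.59 in both fractions (adjusted p = 0.662 in RNA and 0.340 in footprints). Sulf2, an extracellular enzyme that trims heparan sulfate, differed from the other 3 in that control A was its lowest RNA library. RNA of Sulf2 stood at 112, 266 and 319 CPM in control libraries A, B and C and at 204, 442 and 434 CPM in shElp3 libraries A, B and C, higher in shElp3 within each letter, and its footprints were at 356, 281 and 319 CPM in the control cultures and 394, 442 and 500.0 CPM in the shElp3 cultures, without overlap. The block gave 0.68 (SE 0.19, adjusted p = 0.0309) for Sulf2 RNA, and DESeq2 called its footprints (adjusted p = 0.0494). In edgeR without the block Sulf2 gave 0.63 (adjusted p = 0.682) in RNA and 0.48 (adjusted p = 0.104) in footprints.

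The level of the set in letter A was high in the control itself. In control RNA, library A exceeded the mean of B and C for 25 of 30 genes, with a median log2 difference of 1.01, against 0.01 over all genes. In control footprints this held for 26 of 29 genes, with a median of 0.83. In shElp3 cells the corresponding medians were 0.31 in RNA (25 of 30 genes) and 0.13 in footprints (24 of 29). Btg2 was 2.22 higher in A in control RNA and 0.85 in shElp3 RNA, and Ccng1 1.58 and 0.60. Trp53 ran the other way in RNA, at -2.29 in control and -1.71 in shElp3, and was closer in footprints, at -0.56 and 0.10. Zmat3 was also lower in RNA of A, at -1.36 and -1.51, and higher in footprints, at 0.71 and 0.27. Whether a property of culture or library A produced its levels was not tested.

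**Figure D3:**
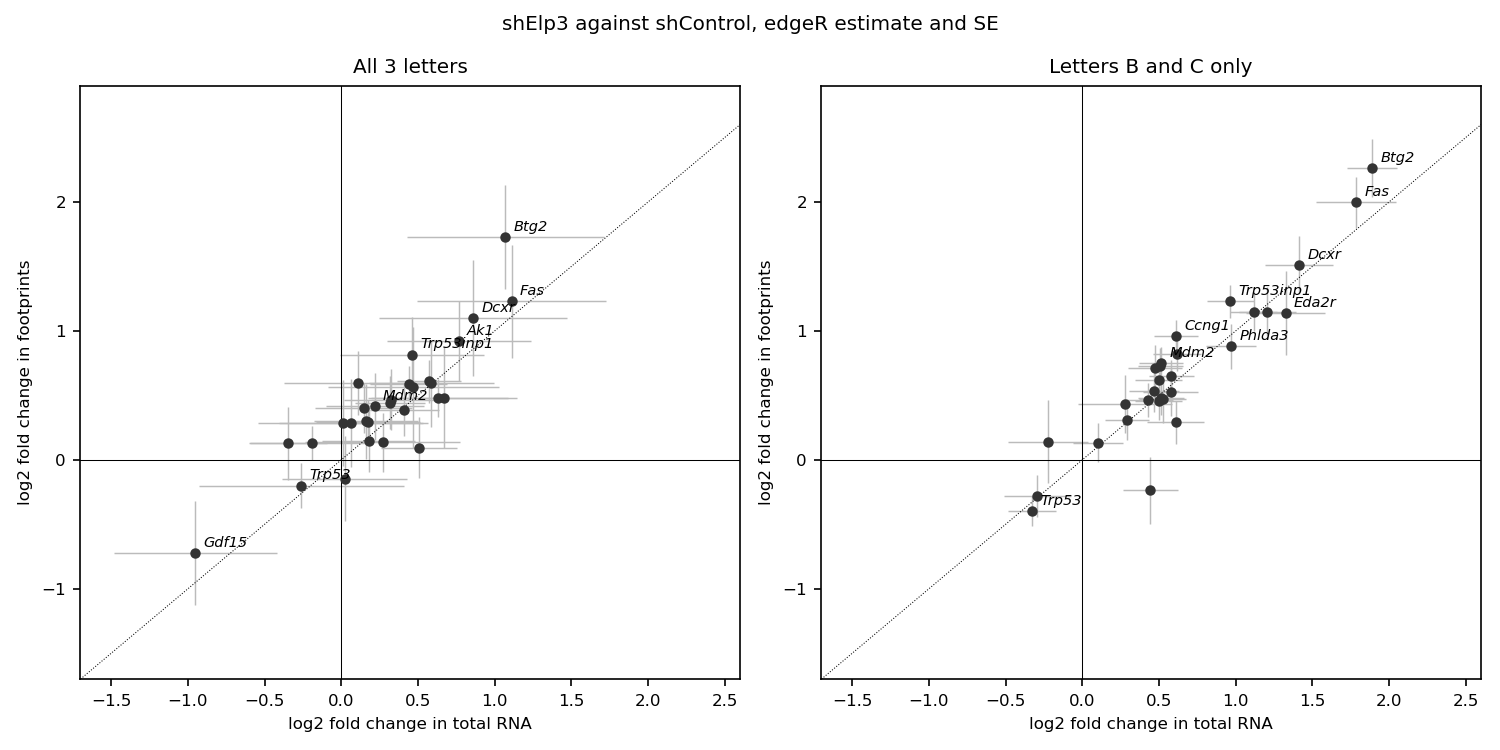
Log2 fold change of shElp3 against shControl in total RNA (x axis) and footprints (y axis) for 29 genes, with bars for the SE of the edgeR fit, over all letters (left) and over letters B and C (right). Genes lie near the dotted line of equal change in both panels, and without letter A the bars are shorter and most values higher, with Btg2 at 1.89 in RNA and 2.26 in footprints.

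Most genes of the set that rose in RNA of letters B and C also rose in footprints of the same cultures. In letters B and C 16 genes rose in both fractions, of 19 in RNA and 19 in footprints. Of all genes 8.88% were called higher in RNA and 9.41% in footprints. How many of all genes were called in both was not counted, so this overlap is not shown to be particular to the set. Aen, Ppm1d and Sesn2 passed in RNA only, and Plk2, Rrm2b and Xpc in footprints only. Translational efficiency (TE, the change in footprints beyond that in RNA) was tested over the 12 libraries by the interaction term between shRNA and fraction. Of 29 genes 0 were called by edgeR, against 0% of 11238 genes, and 0 by DESeq2. At an unadjusted p under 0.05 there were also 0 of 29, against 0.552% of all genes. The median TE change was 0.08, against -0.03 over all genes, and the values ran from -0.47 (SE 0.36, adjusted p = 1.000) for Sesn2 to 0.59 (SE 0.82, adjusted p = 1.000) for Btg2. Trp53 gave 0.015 (SE 0.75, adjusted p = 1.000). That fit did not pair RNA with footprints of the same culture. With the culture as a block, which pairs them, 0 of 29 genes were called, against 0 of all genes. The values were then -0.43 (SE 0.32) for Sesn2, 0.41 (SE 0.33) for Btg2, 0.15 (SE 0.17) for Mdm2 and -0.088 (SE 0.68) for Trp53. SEs of this size leave room for a difference in either direction.

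The ratio of footprints to RNA within a culture differed widely between genes of the set. Trp53 had the highest ratio of the 29 genes in all 6 cultures, with log2 values of 3.51, 1.73 and 1.72 in control A, B and C and 3.50, 1.58 and 1.73 in shElp3 A, B and C. Among 11238 genes it stood between percentiles 98.7 and 99.3 in the controls. Letter A had the higher Trp53 ratio in both groups. In the control its Trp53 was lower than in B and C by more in RNA than in footprints. Zmat3 lay at the other end in B and C, at -1.37, -3.35 and -3.58 in the controls, with Mdm4 at -2.67, -3.17 and -2.85 and Ccng1 at -2.89, -2.33 and -2.11. The median over the 29 genes was -0.62, -0.30 and -0.53 in control A, B and C, against -0.21, -0.15 and -0.14 over all genes. Both fractions were scaled separately, so these ratios order genes and give no absolute rate. Whether whole exons or only coding sequence were counted is not given in the sources used here, and a long untranslated region lowers such a ratio when exons are counted.

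**Figure D4:**
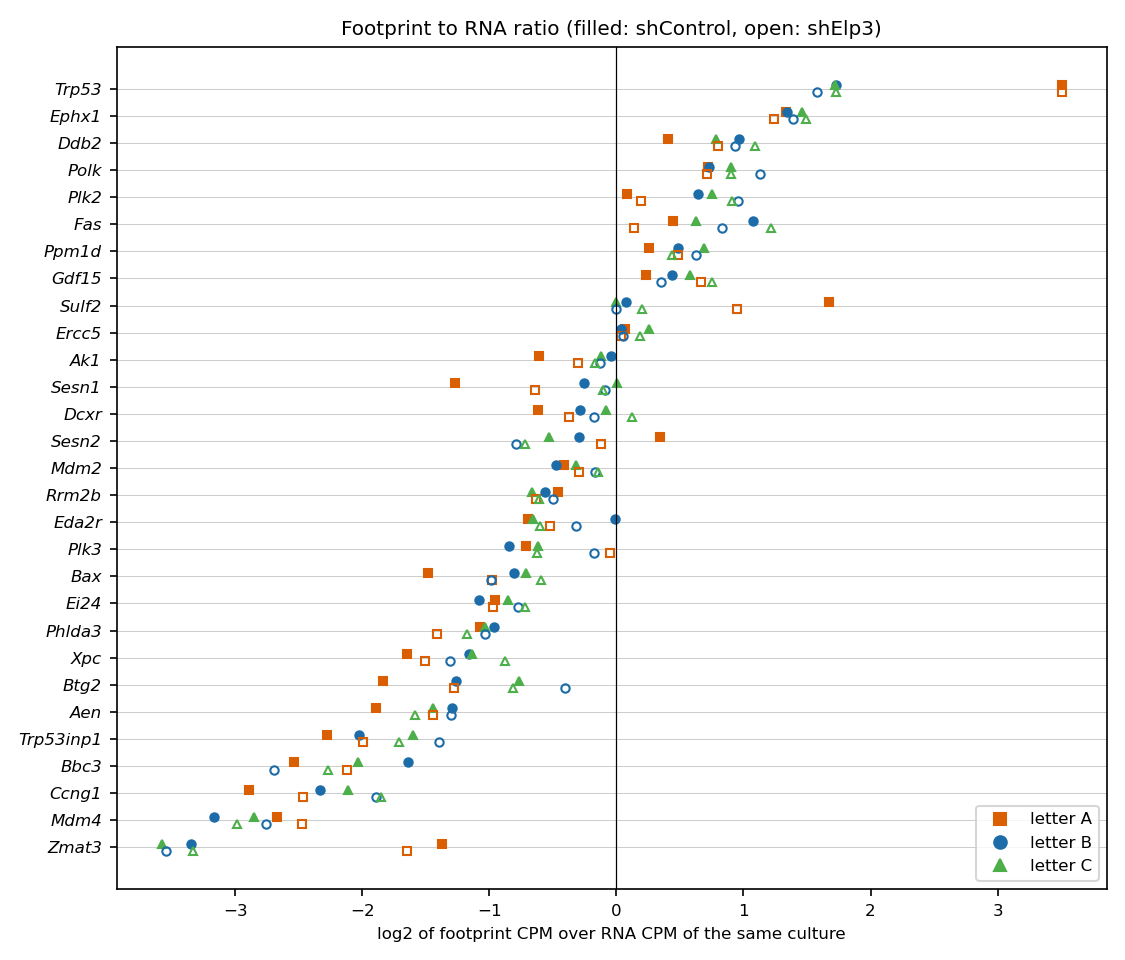
Log2 ratio of footprint CPM to RNA CPM of the same culture (x axis) for 29 genes (rows, ordered by the control median), filled for shControl and open for shElp3, with shapes for the letters. Trp53 is at the top in all 6 cultures, with 1.73 in control B, and Zmat3 at the bottom in letters B and C, with -3.35 in control B.

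Genes that act upstream of p53 or alongside it, such as damage kinases and cofactors, were tested as a further list. Of 23 such genes 21 were tested in RNA, of which 0 were higher and 1 lower over all letters, 0 and 2 with the replicate block and 0 and 3 in B and C, with a median of -0.21 over all letters. Of 12274 genes tested in RNA, 27 were called higher and 113 lower over all letters. With the block 5.46% of all genes were called higher and 6.75% lower, and in B and C 8.88% and 10.5%. The checkpoint kinase gene Chek1 fell in RNA, from 16.7, 27.5 and 17.5 CPM in control A, B and C to 3.06, 4.16 and 4.89 CPM in shElp3, a log2 fold change of -2.35 (SE 0.32, adjusted p = 0.0243). On leaving out any library other than control A the call was lost (adjusted p 0.0752 to 0.166). Npm1, the nucleolar protein nucleophosmin, fell with the block (-0.82, SE 0.22, adjusted p = 0.0249), with control A again the highest library at 1131 CPM. Of the 20 tested in footprints 1 was higher over all letters and 0 were lower. Of 11343 genes tested in footprints, 201 were called higher and 347 lower over all letters. The 1 higher gene of the list was Trp53bp1, a chromatin protein of break repair. Its footprints were at 81.1, 87.4 and 102 CPM in the controls and 139.8, 145 and 149.6 CPM in shElp3 (0.68, SE 0.14, adjusted p = 0.0375). In B and C 2 of the 20 were higher and 4 lower, against 9.41% and 12.2% of all genes. Chek1 footprints, at 9.94, 62.5 and 50.9 CPM in the controls and 1.88, 6.49 and 10.2 CPM in shElp3, gave -2.72 (SE 0.73, adjusted p = 0.0768) over all letters and were called lower by DESeq2 (adjusted p = 0.0338) and in B and C (adjusted p = 7.37e-06). The Trp53bp1 call was lost without any library other than control A (adjusted p 0.0779 to 0.176). In those fits at most 59 of all genes were called in footprints.

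A further 31 known p53 targets, outside the 32 genes, gave calls in the higher direction in RNA. Of 28 tested in RNA 0 were called over all letters, against 1.14% of all genes. With the replicate block 4 rose (5.46% of all genes), and in B and C 10 rose (8.88% of all genes). The median over all letters was 0.09. The 4 were Trp53cor1 (1.46, SE 0.24, adjusted p = 0.00101), the lipid transfer protein gene Pltp (0.999, SE 0.18, adjusted p = 0.00184), the phosphatase gene Ptp4a3 (0.69, SE 0.20, adjusted p = 0.0341) and the peptide transporter gene Tap1 (0.66, SE 0.19, adjusted p = 0.0359). In footprints the median over the 27 tested was 0.27 over all letters. In B and C 8 of the 27 were higher and 1 lower, against 9.41% and 12.2% of all genes. Over all letters 1 rose, against 201 of 11343 genes called higher. The 1 target was Trp53cor1, at 3.78, 4.17 and 3.01 CPM in the controls and 11.8, 10.8 and 9.87 CPM in shElp3 (1.57, SE 0.23, adjusted p = 0.0197). That call was likewise lost without any library other than control A (adjusted p 0.0643 to 0.134), where at most 59 of all genes were called. Trp53cor1 is a long noncoding RNA, so its footprint counts are no measure of a protein made. Cdkn1a (p21), the inhibitor through which p53 arrests the cell cycle, had RNA at 198, 307 and 301 CPM in control libraries A, B and C and at 179, 625 and 351 CPM in shElp3 libraries A, B and C. Its footprints were at 994, 522 and 619 CPM in the control cultures and 1065, 953 and 653 CPM in the shElp3 cultures. In both fractions the groups overlapped. The log2 fold change of Cdkn1a was 0.52 (SE 0.45, adjusted p = 0.746) in RNA and 0.32 (SE 0.27, adjusted p = 0.524) in footprints over all letters, and 0.68 (SE 0.20, adjusted p = 0.0238) and 0.49 (SE 0.17, adjusted p = 0.0608) in B and C.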

How the data were processed

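The deposited table holds whole-number read counts per gene symbol for 12 libraries, which the authors made from a TruSeq Ribo Profile kit for mammalian cells, per the labels. The submitters' processing notes name Bowtie, TopHat2 2.1.1, HTSeq and the build mm10. Annotation, strand setting and counted feature are not given there, so reads of overlapping genes may be mixed.

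Groups came from the labels. Genes were kept with filterByExpr (minimum count 10) per fraction and scaled by TMM. Groups were compared with glmQLFit and glmQLFTest of edgeR 4.0.16 in R 4.3.3, tested on simulated data, with Benjamini-Hochberg adjustment over all genes and a threshold of 0.05. TE used genes that passed in both fractions, and its block was the culture, which pairs RNA with footprints. DESeq2 1.42.0, other size factors, no filter, a replicate block, letters B and C only and each library left out were alternatives. Within-letter differences used log2(CPM + 0.5). Same-letter deviations correlated at 0.789, 0.489 and 0.515 in TE and at 0.356, -0.101 and 0.256 in footprints, so the block is given beside the RNA results and for footprints only as an alternative. The limit stated for letters B and C in RNA holds for these correlations too. The 32 genes, the lists and the rule for named genes (values in every library for Trp53, its regulators and up to 12 genes called in the unblocked, blocked or B and C fits, and a few genes of each other list) were chosen with earlier results of these data known.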

Additional observations from a re-analysis of the deposited data

How the results depend on the processing

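Calls in the p53 set depended on letter A. Without a replicate block and with all libraries 0 genes of the set were called in RNA and 0 in footprints. A replicate block gave 6 in RNA and 3 in footprints (Ak1, Btg2 and Dcxr), letters B and C only gave 19 and 20, and DESeq2 gave 5 and no low-count filter 1 in footprints. Leaving out 1 library gave 0 to 7 in RNA and 0 to 22 in footprints, with all these calls made without control A. The median log2 fold change of the set then ran from 0.15 to 0.60 in RNA, from 0.29 to 0.67 in footprints and from -0.072 to 0.23 in TE. Over all genes, RNA calls were 1499 with the block, 2377 in B and C and 652 by DESeq2, with 0 to 540 on leaving out 1 library. The RNA count over all genes was 0 on leaving out any library other than control A. Footprint calls over all genes were 666 with the block (222 of 11343 higher) and 764 without the filter (265 of 17516 higher). They were 2477 in B and C and 1308 by DESeq2, with 0 to 2856 on leaving out 1 library. Leaving out control B or C gave 52 or 59 footprint calls over all genes, and leaving out any shElp3 library gave 0. In TE 2 genes were called in B and C. The cause of these differences was not tested. In footprints the block also called Chek1 lower (-2.69, adjusted p = 0.00151), and in RNA it added the calls of Elp3, Npm1, Trp53cor1, Pltp, Ptp4a3 and Tap1. It changed no other call of a gene named here.

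Some fold changes near 0 changed sign. In RNA Sesn1 was 0.10 in B and C, Bbc3 -0.0040 without the filter, and Plk2 -0.012 with RLE size factors, -0.011 by DESeq2 and -0.015 without the filter. In TE Trp53 was -0.088 with the culture as a block, -0.091 in B and C and -0.00049 without the filter. Ppm1d was 0.016 in TE with RLE size factors and 0.015 by DESeq2. Ranges on leaving out 1 library that crossed 0 were, in RNA, -0.19 to 0.77 for Aen, -0.24 to 0.60 for Bbc3, -0.15 to 0.84 for Ccng1, -0.026 to 0.86 for Cdkn1a, -0.0079 to 0.41 for Ddb2, -0.020 to 0.60 for Ei24, -0.38 to 0.87 for Plk2, -0.44 to 0.35 for Sesn1, -0.36 to 0.30 for Tnfrsf10b, -0.72 to 0.13 for Trp53, -0.013 to 0.58 for Xpc and -0.061 to 0.62 for Zmat3. In footprints they were -0.45 to 0.049 for Bbc3, -0.058 to 0.46 for Ercc5, -0.11 to 0.36 for Sesn2 and -0.040 to 0.40 for Zmat3, and in TE -0.052 to 0.22 for Mdm4, -0.11 to 0.095 for Ppm1d and -0.35 to 0.34 for Trp53. Counts of Pmaip1 and Perp were too low to be tested in either fraction, and those of Tnfrsf10b in footprints.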
